A study of Mus musculus with 19 samples.

Results

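Knockout clone 2 of the Melan-a line was compared with its parental line by bulk RNA sequencing, with 2 cultures of each, 4 of the 19 samples of the series. The series also holds DNA libraries, RNA of 3 other BAP1 knockout clones and single-cell RNA of tumours. Genes were kept where the mean over all 10 bulk libraries lay at least 1 log2 unit above the lowest value of the table, which left 10803 of 13202 genes. Just inside that limit stood Gm10432, with 31.7 to 81.0 normalised reads per culture, and just outside it stood 1700113A16Rik, with 37.3 to 61.5.

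Melan-a is an immortalised line of pigmented mouse melanocytes. The parental cells carry intact Bap1, and clone 2 is 1 of 4 clones in which Bap1 was targeted with CRISPR-Cas9; no drug or other treatment was applied to either group. The labels call both cultures of each line biological replicates of batch1, without saying how they were grown apart. Clone 2 is a single clone and no edited clone with intact Bap1 was among the libraries, so loss of BAP1 and other properties of the clone cannot be told apart, and p-values measure the spread between cultures of the same line. Clones 1, 3 and 4 were used to ask where clone 2 stood among the knockout clones.

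BAP1 is a nuclear deubiquitinase. Together with an ASXL partner it removes ubiquitin from histone H2A, a mark laid down by Polycomb repressive complex 1, and through this it affects which genes stay silent. Inherited or acquired loss of BAP1 is known from uveal melanoma and other melanocytic tumours.

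Clone 2 was sequenced to 41324606 and 43065615 counted reads and the parental cultures to 37941855 and 40636827, within 30770592 to 46837289 over all 10 libraries. The parental cultures lay closer together than those of clone 2: the difference between cultures had an SD over genes of 0.0774 log2 units in the parental line and 0.241 in clone 2. All 8 defining melanocyte markers were measured in clone 2, with Pmel at 636149 and 745657 normalised reads, Dct at 487615 and 428880, Tyrp1 at 315086 and 307999, Sox10 at 23245 and 28626 and Mitf at 18626 and 19414. Of markers of other cell types, 5 of 19 mast cell, 5 of 22 immune, 6 of 14 endothelial, 4 of 17 keratinocyte and 2 of 14 fibroblast genes had a row in the table. Ptprc, Cd3e, Cdh5, Krt5, Krt14, Col1a1 and Dcn had none. The endothelial genes with a row summed to 4971 and 6928 reads in clone 2 and 8093 and 7910 in parental cells. Fibroblast genes summed to 4018 and 3677 against 3061 and 3092. Immune genes summed to 1262 and 1127 against 1364 and 1376, and keratinocyte genes to 268 and 240 against 272 and 328.

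Bap1 itself, on chromosome 14 (31251352 to 31259930, GRCm38), checked the knockout label. The parental cultures had 4468 and 4410 normalised reads of it and clone 2 had 1071 and 1129, so the groups did not overlap. The ratio of means was 0.248, and the difference on the deposited log2 scale was −1.85 (SE 0.12, adjusted p = 6.7e-06, limma). Bap1 RNA was higher in clone 2 than in the mean of the other 3 clones, by 0.52 (adjusted p = 0.0090, limma), whose cultures ranged from 361 reads (clone 4) to 1198 (clone 3). Of 12 tested genes of BAP1 and its partners, Asxl1 (0.43) and Mbd6 (0.52) rose against parental, and Bap1 was the single one that fell. The calls of Asxl1 and Mbd6 were lost in some of the alternative fits described below, that of Mbd6 also without either replicate of clone 3. Of 31 Polycomb genes, 3 rose, among them Pcgf6 (0.48) and Ezh1 (0.38), and Bcorl1 fell by 0.52, at or below the shares over all genes tested of 12% higher and 14.1% lower.

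Against the parental line, 1300 genes were higher in clone 2 (12% of those tested) and 1522 were lower (14.1%), at an adjusted p under 0.05 by limma. The falls reached further: 339 genes fell and 81 rose by more than 1 log2 unit. The median difference over all genes tested was 0.03. These log2 values are variance-stabilised by the authors, a transformation that compresses differences of genes with few reads, so for many of the genes the reads of each culture are given too. The shares of 12% and 14.1% are the background for the count of every gene list.

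The 3 largest rises were in genes with fewer than 7 reads in each parental culture, a pair of receptors and a neuronal membrane protein. Mrgprb1, a Mas-related receptor, stood at 6.7 and 6.2 reads in the parental cultures and at 9079 and 8452 in clone 2. Its difference was 6.14 (SE 0.12, adjusted p = 1.1e-09, limma). Its neighbour Mrgprx2 went from 0.96 and 3.5 reads to 1846 and 1507 (4.04). Mrgprx2 passed the gene filter only through clone 2, so no p-value is given for it. Both receptors lie side by side on chromosome 7 (48444113 to 48456342 and 48478619 to 48499270, GRCm38). The other clones ranked below clone 2 for Mrgprb1, at 1516 and 1272 reads for clone 1, then 1219 and 1005 for clone 3, while clone 4 had 18.4 and 10.1.

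The only other Mas-related receptor tested, Mrgpre, had 629 and 544 reads in clone 2 against 798 and 819, a difference of −0.37 (adjusted p = 0.047, limma). That call was lost in 10 alternatives, among them quantile normalisation and leaving out either clone 2 culture, with adjusted p up to 0.23 (limma). Of the next genes of the table on either side, Tmem86a fell from 607 and 630 reads to 348 and 317, and Zdhhc13, with 700 and 764 against 588 and 558 in clone 2, was not called. Of the mast cell list, Gata2, a transcription factor of blood and mast cells, was lower in clone 2 (76.5 and 43.0 reads against 262 and 255, adjusted p = 0.00025, limma), and Kit and Hpgds were not called. Summed reads of that list, most of them Kit, which melanocytes express too, were 16019 and 12992 in clone 2 and 19181 and 19017 in parental cells.

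Sez6l, a neuronal membrane protein, was the gene that most set clone 2 apart. It stood at 4394 and 4247 reads in clone 2, at 0.96 and 1.8 in the parental cultures and at no more than 4.6 in any culture of the other clones. The difference was 5.36 against parental and 5.32 against the mean of the other clones. Sez6l passed the gene filter only through clone 2, with a mean 1.26 above the table minimum, so no p-value is given. On one side of it the next gene, Asphd2, went from 8032 and 7562 reads to 7128 and 8262. On the other side Myo18b (22.2 and 42.1 reads in clone 2, at most 3.5 elsewhere) and Sgsm1 (35.6 and 88.7, at most 5.8 elsewhere) were low but highest in clone 2, while Ficd beyond them had 796 and 854 reads against 740 and 785.

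The gene filter can leave out genes with reads in a single line. The whole table was therefore also searched for genes with at least 100 reads in both clone 2 cultures. Elsewhere they could have no more than 5% of the lower one, a rule chosen after the values were seen. It found 4 genes, Sez6l, Ephb1, Kcnk3 and Aoc1, of which the last 3 lay below the filter; the same rule found 0 genes in each of the other 4 lines. Ephb1, an Eph receptor of axon guidance on chromosome 9, had 1147 and 1576 reads in clone 2 and 0 in all 8 other libraries, which makes it at least 399-fold higher than a floor of 3 counts per parental library. The potassium channel gene Kcnk3 had 524 and 316 reads against at most 8.9 elsewhere. Aoc1, a diamine oxidase, had 508 and 408 against at most 17.7. Genes beside Ephb1 did not share its pattern, with Ppp2r3a at 647 and 562 reads in clone 2 and 740 and 768 in parental cells, and Cep63 at 706 and 720 against 649 and 722.

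Promoter sequences of these clone 2 genes are shown because they differ in CG content. Each is the 200 bases before the start site from RefSeq (GRCm38.p6, minus strand for all 4), with CG dinucleotides in capitals. Mrgprb1 lies at chr7:48456343-48456542, Mrgprx2 at chr7:48499271-48499470, Sez6l at chr5:112577199-112577398 and Ephb1 at chr9:102354694-102354893.
Mrgprb1: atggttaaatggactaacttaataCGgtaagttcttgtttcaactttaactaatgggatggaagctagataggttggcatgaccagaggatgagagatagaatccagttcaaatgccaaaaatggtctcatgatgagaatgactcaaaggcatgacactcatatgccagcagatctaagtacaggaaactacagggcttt
Mrgprx2: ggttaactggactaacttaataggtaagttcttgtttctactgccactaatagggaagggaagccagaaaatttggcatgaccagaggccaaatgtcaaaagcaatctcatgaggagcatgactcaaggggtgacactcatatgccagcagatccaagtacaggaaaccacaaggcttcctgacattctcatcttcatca
Sez6l: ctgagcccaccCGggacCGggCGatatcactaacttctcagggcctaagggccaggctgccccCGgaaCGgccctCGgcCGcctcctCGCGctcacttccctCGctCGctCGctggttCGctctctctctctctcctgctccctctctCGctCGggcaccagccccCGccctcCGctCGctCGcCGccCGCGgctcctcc
Ephb1: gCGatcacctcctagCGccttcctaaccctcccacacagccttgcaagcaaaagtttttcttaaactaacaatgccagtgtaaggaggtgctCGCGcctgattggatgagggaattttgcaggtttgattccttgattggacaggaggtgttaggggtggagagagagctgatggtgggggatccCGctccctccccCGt
These stretches hold 1, 0, 22 and 6 CG dinucleotides. From 250 bases before to 50 after the start, the counts were 1, 0, 35 and 14, beside a median of 7 over all 32851 RefSeq promoters and of 21 over the 11088 promoters of tested genes. The 4 promoters thus range from none to 35, on both sides of those medians.

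In all, 88 genes were higher (0.815% of those tested) and 53 lower (0.491%) in clone 2 than in each of the 4 other lines, with all 4 adjusted p under 0.05 by limma, 141 in all (1.31%). Some of the higher genes, among them Sez6l, Mrgprx2 and Birc5, passed the gene filter only through clone 2. Their place in this count is a description. By edgeR the numbers were 67 higher and 72 lower. The higher group included Emp2, an epithelial membrane protein, at 885 and 2237 reads in clone 2, 68.9 and 81.3 in parental cells and 12.7 to 118 in the other clones. The 2 cultures of clone 2 differ for this gene, but both lie above every other culture. Arfgef3, a regulator of vesicle traffic, was steadier, with 6383 and 6331 reads against 1065 and 1042 in parental cells and 553 to 1635 in the other clones.

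Receptors were among them too. Npy1r, a receptor for neuropeptide Y, had 1638 and 1404 reads in clone 2, 558 and 540 in parental cells, and only 3.1 and 4.6 in clone 3. Tnfrsf19, a Wnt-responsive receptor of the TNF family, had 2594 and 3911 reads against 1141 and 1166, with 412 to 1016 in the other clones. Clone 2 thus exceeded the parental line for both genes, while the other 3 clones lay below it.

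**Figure D1:**
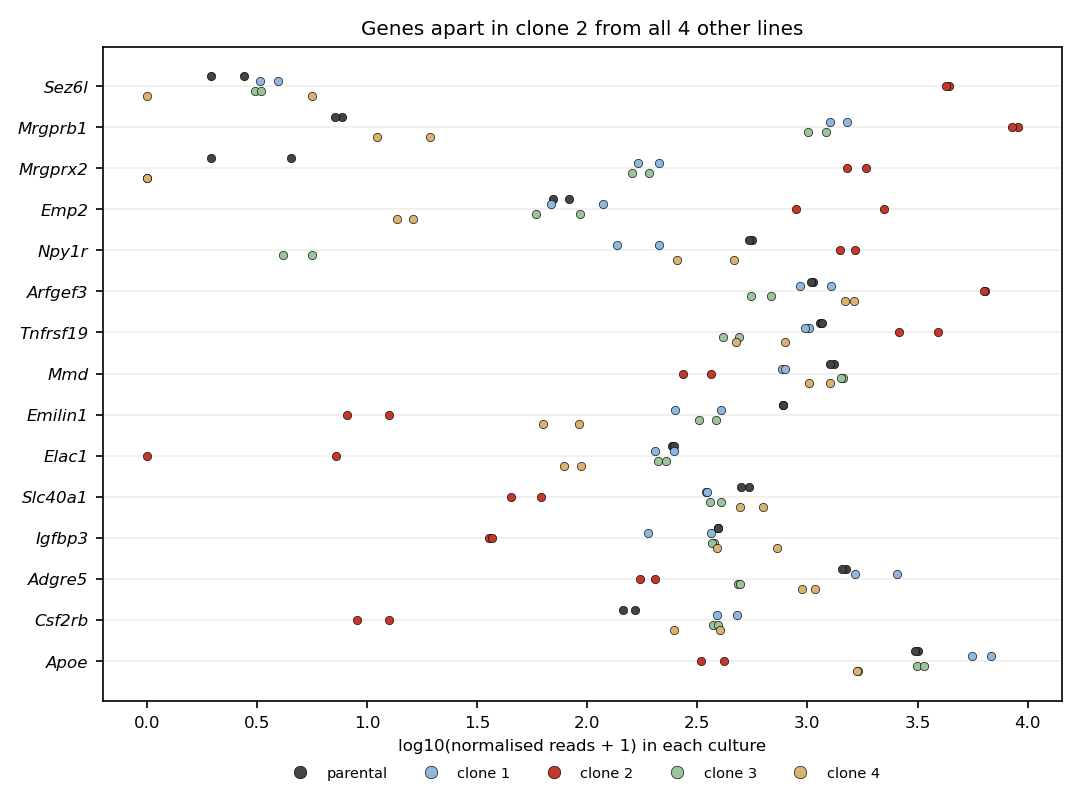
Reads of 15 genes apart in clone 2 from all 4 other lines, as log10(normalised reads + 1) on the x axis; each point is 1 culture and colours mark the 5 lines. The red clone 2 points stand alone at the right for the upper 7 genes, such as Sez6l at 4394 and 4247 reads, and alone at the left for the lower 8, such as Apoe at 329 and 416.

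Among genes lower in clone 2 than in every other line, the secreted lipid carrier Apoe had the largest difference from the other clones. It had 329 and 416 reads in clone 2, 3170 and 3069 in parental cells, and 1684 to 6786 in the other clones, a difference of −2.65 (adjusted p = 1.7e-07, limma). Of the genes beside it, Tomm40 had 2855 and 3751 reads in clone 2 and 2335 and 2403 in parental cells and was not called, while Bcam, an adhesion molecule 54.8 kb away, fell from 1268 and 1265 reads to 329 and 297. Slc40a1, the iron exporter ferroportin, had 60.5 and 43.9 reads against 500 and 541. Igfbp3, which binds insulin-like growth factors, had 34.7 and 35.8 against 393 and 390, and Csf2rb, a shared chain of cytokine receptors, had 11.6 and 8.1 against 144 and 164.

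Genes with a read level near zero in clone 2 alone were Emilin1 and Elac1, by a rule chosen after the values were seen: at least 100 reads in both parental cultures, at most 5% of that in clone 2, and at most 25% of the lowest other culture. Emilin1, an elastic-fibre glycoprotein, had 7.1 and 11.6 reads in clone 2, 778 and 772 in parental cells and 62.2 to 404 in the other clones. Elac1, a tRNA-processing nuclease, had 6.2 and 0 reads in clone 2, 242 and 246 in parental cells and 77.2 to 248 elsewhere. Of the genes beside Elac1, Me2 was lower as well (345 and 283 reads against 834 and 841) but lower still in clone 3 (257 and 237), and Smad4 was not (2552 and 2463 against 2418 and 2362). Adgre5, a leukocyte adhesion receptor (203 and 172 against 1494 and 1433), and Mmd (364 and 270 against 1325 and 1260) were the others of the 8 genes apart from all lines with the largest negative difference from the other clones.

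Other large changes were seen against the parental line. The protease inhibitor gene Serpine2 fell furthest, from 3403 and 3397 reads to 34.7 and 56.4 (−4.24, SE 0.11, adjusted p = 4.5e-09, limma). Clones 3 and 4 had no more than 54.6 reads, and clone 1 was between, with 879 and 948. Pros1, an anticoagulant and ligand of TAM receptors, fell from 1565 and 1563 reads to 40.9 and 21.5. Emb, a partner of monocarboxylate transporters, fell from 1593 and 1598 to 44.4 and 40.3, and Atp1b2, a sodium pump subunit, from 2432 and 2362 to 150 and 74.3.

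Cd36, a fatty acid receptor, fell by 3.44 (adjusted p = 0.0017, limma), and its cultures differed: 463 and 73.4 reads in clone 2 against 3960 and 3963 in parental cells. Gpr37, an orphan receptor of neural cells (−3.05), Dpysl3, a cytoskeletal protein of growth cones (−2.97), Hsd17b11, a lipid droplet enzyme (−2.96), Ehd3, an endocytic protein (−2.83), and the tetraspanin gene Tspan12 (108 and 110 reads against 1787 and 1848) fell as well. Among the rises, Kcnj13, an inward rectifier potassium channel, had 5162 and 2566 reads against 502 and 487. Abcc2, an organic anion exporter, had 7042 and 6399 against 1286 and 1249, and was higher than clone 1 (0.36) and lower than clone 3 (−0.40), so that its difference from the mean of the other clones was not called (0.06, SE 0.08, adjusted p = 0.69, limma). Avil (2.55, with unequal clone 2 cultures of 430 and 1554 reads against 27.7 and 41.5), Skint2 (2.45), the lysosomal channel gene Mcoln3 (2.44), the vesicle protein gene Syt4 (2.01) and the cytokine gene Il36g (1.97) made up the rest of the 12 largest.

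**Figure D2:**
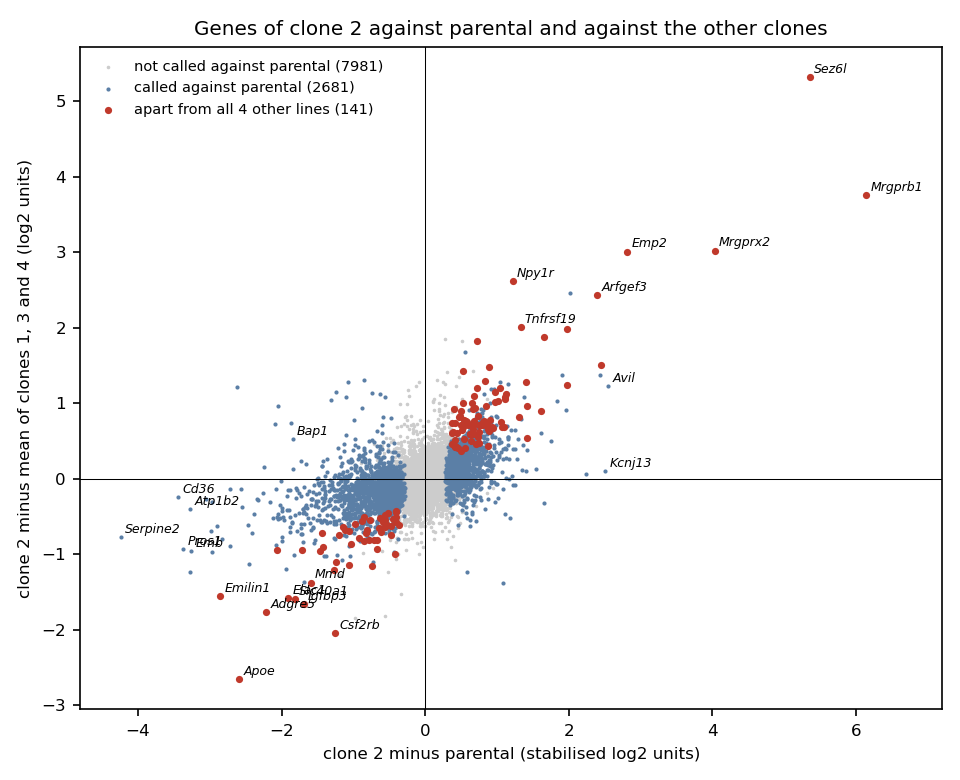
Each point is 1 of 10803 genes; the x axis is clone 2 minus parental and the y axis clone 2 minus the mean of clones 1, 3 and 4, both in stabilised log2 units. Red points are the 141 genes apart from all 4 other lines; Serpine2 lies at −4.24 on the x axis and −0.77 on the y axis, and Sez6l at 5.36 and 5.32. Both axes share the clone 2 cultures.

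Against the mean of clones 1, 3 and 4, clone 2 had 601 genes higher (5.56%) and 642 lower (5.94%) by limma. Of the 2822 genes called against parental, 670 were called with the same sign against the other clones, 44 with the opposite sign and 2108 were not called. Both comparisons use the same clone 2 cultures, so the shared count is a description.

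Among lists with at least 12 tested genes, that of cell division had the highest median. Of 40 mitosis genes 33 passed the filter, and 27 of those rose and none fell, where 12% of all genes rose; the median difference was 0.70, beside 0.03 over all genes. The filter uses the clone 2 libraries too, so among genes with few reads it favours those high in clone 2. Birc5 and Ccnb2 passed it only through clone 2, so the counts of this list are a description. The median was 0.77 in one clone 2 culture and 0.56 in the other, and 0.27, −0.17 and 0.11 in clones 1, 3 and 4. Against the mean of the other clones 22 of the 33 were higher, where 5.56% of all genes were. Clone 2 lay above clone 1 for 32 of the 33 genes and above clones 3 and 4 for all 33.

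Mki67, the proliferation marker Ki-67, went from 67.9 and 62.7 reads to 320 and 219, while the other clones ranged from 26.2 in clone 3 to 135 in clone 1 (1.02, SE 0.15, adjusted p = 0.00084, limma). Birc5, the chromosomal passenger protein survivin, went from 30.6 and 30.0 reads to 188 and 111. Cdc20, an activator of the anaphase-promoting complex, went from 73.7 and 83.1 to 220 and 222. These 3 genes stood apart from all 4 other lines. Birc5 passed the gene filter only through clone 2, so for it this is a description and not a test. Ccnb2, a mitotic cyclin, rose from 34.4 and 39.8 reads to 127 and 129, and Cdk1, its kinase, from 372 and 316 to 646 and 640; for Top2a the first clone 2 culture was higher than the second, at 548 and 306 against 131 and 123.

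The number of mitosis genes called depended on single libraries. It was 9 and 11 without parental replicate 1 and 2, 11 without clone 2 replicate 1 and 23 without clone 2 replicate 2, with none lower in any of these fits. A filter at 2 units above the minimum left 9 mitosis genes, of which 5 rose.

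**Figure D3:**
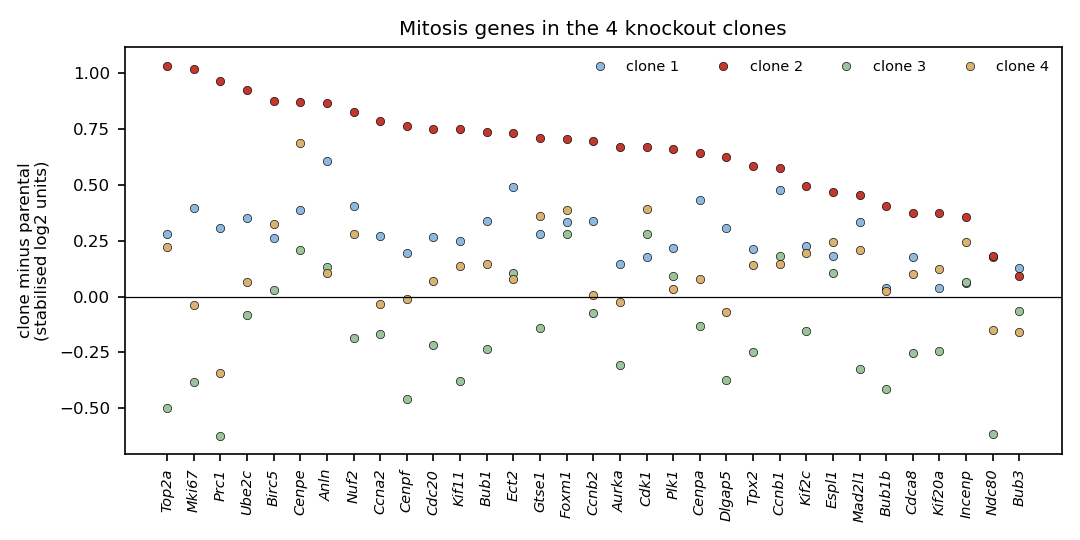
Difference from parental, in stabilised log2 units, of the 33 mitosis genes tested, ordered by clone 2; colours mark the 4 clones. Clone 2 (red) runs from 1.03 for Top2a down to 0.09 for Bub3, and the other clones lie below it for every gene but Bub3, for which clone 1 is at 0.13.

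Many mitotic promoters carry the letters TTTGAA, the core of the cell cycle homology region, and CCAAT, a box bound by NF-Y. The 200 bases before the start of Mki67 (chr7:135716380-135716579), Ccnb2 (chr9:70421555-70421754) and Cdk1 (chr10:69352913-69353112) are given from RefSeq GRCm38.p6, all minus strand, with both motifs in capitals, on either strand.
Mki67: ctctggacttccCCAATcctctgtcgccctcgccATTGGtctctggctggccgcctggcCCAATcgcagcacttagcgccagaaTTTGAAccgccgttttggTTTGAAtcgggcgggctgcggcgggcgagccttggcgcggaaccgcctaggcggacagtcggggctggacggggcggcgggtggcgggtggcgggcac
Ccnb2: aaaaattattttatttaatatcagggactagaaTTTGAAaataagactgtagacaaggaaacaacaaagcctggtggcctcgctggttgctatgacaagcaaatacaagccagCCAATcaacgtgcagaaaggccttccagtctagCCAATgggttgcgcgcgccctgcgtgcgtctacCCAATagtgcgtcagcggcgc
Cdk1: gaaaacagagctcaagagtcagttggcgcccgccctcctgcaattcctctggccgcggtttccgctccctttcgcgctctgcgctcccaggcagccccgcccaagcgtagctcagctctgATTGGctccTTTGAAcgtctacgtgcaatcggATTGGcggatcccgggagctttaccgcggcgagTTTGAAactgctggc
Of 31 promoters found for 27 of the 33 tested mitosis genes, 23 (74.2%) held TTTGAA and 25 (80.6%) held CCAAT between 250 bases before and 50 after the start, on either strand. Over all 32851 promoters the shares were 17.9% and 37.4%, and over the promoters of tested genes 11.6% and 37.8%. Of 25 promoters of mitosis genes called higher, 17 (68%) held TTTGAA and 21 (84%) held CCAAT. The promoters printed above were picked from those with both motifs, whereas that of Birc5 held neither. The motifs do not overlap in letters, and a match is a description of the sequence only.

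DNA replication genes moved less than mitosis genes. Of 39 tested, 10 rose and none fell, where 12% of all genes rose and 14.1% fell, with a median of 0.20. They included the helicase genes Mcm5 (from 53.6 and 51.3 reads to 298 and 270), Mcm2 (0.78) and Mcm6 (0.69), the transcription factor E2f1 (0.87), Mcm10 (0.77) and the cyclin gene Ccne1 (0.67), the last of which stood apart from all other lines. The number was 2 without parental replicate 1 or 2, 4 without clone 2 replicate 2 and 16 without either replicate of clone 4. Of 25 genes of homologous recombination, 1 rose, Fancd2 (0.85), and 2 fell, Fancg (−0.49) and Brca2 (−0.43), both shares below those over all genes. The call of Brca2 was lost by edgeR and in 8 other alternatives, and that of Fancg in 6.

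Of 22 CDK inhibitors and p53 targets, 3 rose, near the 12% of all genes, and 5 fell, where 14.1% of all genes fell. The median was −0.04. Mdm2, the ligase that removes p53, rose from 1619 and 1532 reads to 2544 and 2706, and Bbc3, a p53 target that promotes apoptosis, from 468 and 384 to 783 and 798. Cdkn2c, an inhibitor of CDK4 and CDK6, fell from 615 and 630 to 314 and 294.

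**Figure D4:**
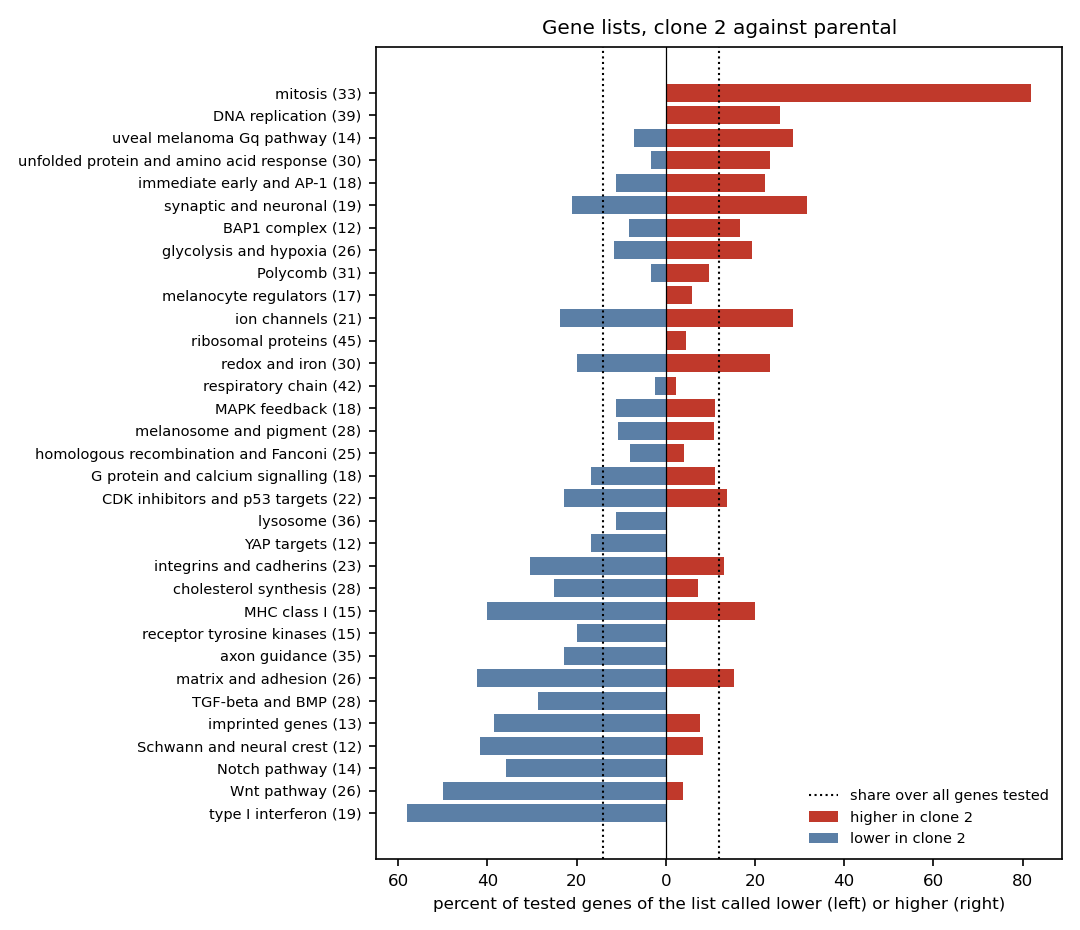
Share of each list's tested genes called lower (left, blue) or higher (right, red) in clone 2 against parental, for lists with at least 12 tested genes, whose number is in brackets; dotted lines mark the shares over all genes tested, 12% higher and 14.1% lower. Mitosis reaches furthest to the right and type I interferon furthest to the left.

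Interferon-stimulated genes were lower. Of 19 tested type I interferon genes 11 fell and none rose, where 14.1% of all genes fell, with a median of −0.85 (0.08, −1.05 and −0.69 in clones 1, 3 and 4). Ifitm3, which blocks viral entry, went from 9011 and 8840 reads to 1611 and 2400. Rsad2, the antiviral enzyme viperin, went from 795 and 867 to 169 and 97.6. None of the 19 was higher than in the other clones and 1 was lower, Ifitm3 (−0.88, adjusted p = 0.0090, limma).

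Of 8 interferon-gamma genes 6 fell (4 without parental replicate 1 or 2 or clone 2 replicate 2), among them Irgm2 (from 188 and 202 reads to 32.0 and 15.2), Gbp2 (−0.69) and the receptor gene Ifngr1 (−0.67). Of 15 genes of MHC class I presentation 6 fell and 3 rose, where 14.1% of all genes fell and 12% rose. Those that fell included H2-D1, a class I heavy chain (from 2199 and 2370 reads to 374 and 718), and the peptide transporter genes Tap1 (−1.19) and Tap2 (−1.69). Those that rose were Calr (0.84), Pdia3 (0.60) and Psmb10 (0.56), of which Calr and Pdia3 are chaperones of the endoplasmic reticulum. Without either parental replicate, 4 fell and 1 rose.

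Most Wnt genes that were called fell. Of 26 tested Wnt genes 13 fell and 1, Tnfrsf19, rose, where 14.1% of all genes fell and 12% rose. Frizzled receptors made up 7 of the 13, Fzd1, Fzd2, Fzd3, Fzd4, Fzd6, Fzd7 and Fzd8, by 0.56 to 1.05; Fzd7 had 5849 and 6009 reads against 12310 and 12570. Lgr4, a receptor for R-spondins, had 549 and 370 against 1853 and 1874. The inhibitors Sfrp1 (−1.40) and Dkk3 (−1.12) fell too, as did Ctnnb1, which encodes beta-catenin (−0.54). The count was 8 without parental replicate 1.

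Of 28 genes of TGF-beta and BMP signalling 8 fell and none rose, where 14.1% of all genes fell and 12% rose. Their leading members were the BMP target genes Id4 (from 3040 and 3050 reads to 564 and 701), Id2 (from 15508 and 15552 to 6594 and 5603), Id3 (−0.88) and Smad6 (−1.01). The number was 3 without parental replicate 1, and 5 without parental replicate 2 or without clone 2 replicate 2. Of 14 Notch genes 5 fell, with Notch1 at −0.66, the sheddase gene Adam17 at −0.64 and the target Hes1 at −0.47.

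Of 26 matrix genes 11 fell, where 14.1% of all genes fell, and 4 rose, where 12% of all genes rose. Spp1, osteopontin, went from 105874 and 106166 reads to 23663 and 16500, and Fn1, fibronectin, from 42814 and 41532 to 9523 and 13758. Thbs1, thrombospondin 1, went from 3167 and 3229 to 235 and 274, and Sparc, a collagen-binding glycoprotein, from 25830 and 25095 to 8910 and 9088. The 4 that rose were Ecm1 (1.19), Nid1 (0.85), Col9a3 (0.75) and Timp2 (0.40). The call of Ecm1 was lost in some alternative fits, among them those without either replicate of clone 3. Without parental replicate 1 or 2, 5 matrix genes fell and 2 rose, and without clone 2 replicate 1, 7 fell and 3 rose. Of 23 integrins and cadherins 7 fell, where 14.1% of all genes fell, led by Itgb8 (−1.93), Nectin3 (−1.62) and Cdh19 (−1.50). L1cam, Mcam and Nectin1 rose, a share near the 12% of all genes.

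Of 35 axon guidance genes 8 fell and none of those above the filter rose, where 14.1% of all genes fell and 12% rose. Those that fell included Robo1 (from 305 and 352 reads to 47.1 and 22.4) and Sema6a (from 524 and 456 to 112 and 77.0). Ephb1, described above, belongs to that list but lies below the filter. Of 12 Schwann cell and neural crest genes 5 fell, including Mbp, myelin basic protein (from 17750 and 17494 to 5195 and 4713). Of 19 synaptic genes 6 rose and 4 fell, with Syt4, Tubb3 (1.01) and Syt7 (0.91) higher and the scaffold gene Shank3 lower (from 572 and 549 to 101 and 107). Of 7 complement genes 4 fell, led by C4b (from 1800 and 1720 to 105 and 167).

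Of 28 melanosome genes 3 rose and 3 fell, near or below the shares over all genes, with a median of 0.01, which became −0.01 with edgeR. After quantile normalisation 3 rose and 8 fell, with a median of −0.0016. Mlana, a melanosome protein, fell from 86615 and 85387 reads to 54499 and 48990, Trpm1 by 0.70 and Rab38 by 0.80. The trafficking genes Ap3d1 (0.50), Ap3b1 (0.33) and Rab32 (0.78) rose. Of 17 melanocyte regulators only Mc1r, the melanocortin receptor, was called, with 4228 and 4298 reads against 2351 and 2273.

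Of 30 iron and redox genes 7 rose, where 12% of all genes rose, and 6 fell, where 14.1% fell; after quantile normalisation 7 rose and 10 fell. Besides Slc40a1, the metallothioneins Mt1 (−1.37) and Mt2 (−2.04) fell, and Steap1 (1.55) and Steap3 (0.82), metalloreductases, and Tfrc, the transferrin receptor (from 1864 and 1836 reads to 2927 and 3348), rose. Against the other clones 7 of the 30 were lower and 1 was higher. Of 30 genes of the unfolded protein and amino acid responses 7 rose, among them Manf (from 1731 and 1766 to 3055 and 4649), Edem1 (0.65), Hspa5 (0.91) and Xbp1 (0.79), and Slc3a2 fell. For iron and redox, 3 rose and 2 fell without either parental replicate or without clone 2 replicate 2. For the unfolded protein response, 2 rose in those fits and 4 without either replicate of clone 3.

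Of 18 tested genes of G protein and calcium signalling 2 rose and 3 fell, near the 12% and 14.1% of all genes. Those that fell were Arrb1, beta-arrestin 1 (from 1048 and 974 reads to 173 and 144), Plcb4, the phospholipase downstream of Gq (from 503 and 501 to 92.5 and 57.3), and Itpr1 (−1.13). Gna11 (0.49) and Grk2 (0.52) rose. Of 15 receptor tyrosine kinases Kdr, a VEGF receptor, fell furthest, from 519 and 551 reads to 10.7 and 17.9. Of 18 genes of MAPK feedback 2 rose, Phlda1 (0.82) and Ccnd1 (0.78), and 2 fell, Ier3 (−0.89) and Spred1 (−0.61), close to the 12% and 14.1% of all genes. The calls of Ier3 and Spred1 were lost in some alternative fits. Against the other clones 5 of the 18 were lower, where 5.94% of all genes were.

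Expression also differed by chromosome. Genes of chromosome 10 had a median difference of 0.28 above the median of all genes, 0.23 and 0.32 in the 2 clone 2 cultures, and 0.10, 0.04 and 0.02 in clones 1, 3 and 4. Of its 526 genes 177 (33.7%) were higher, where 12% of all genes were, and 38 were lower. In windows of 40 consecutive genes all 14 medians were above the genome median, from 0.05 to 0.45. The gene lists above were counted without regard to chromosome, and Cdk1 of the mitosis list lies on chromosome 10. How far this shift enters the rises of list members was not tested. Of the 88 genes higher in clone 2 than in every other line, 20 lay on chromosome 10 and none of the 53 lower ones did; among the 20 were Arfgef3, the nuclear lamin gene Lmnb2 (from 583 and 555 reads to 1295 and 1480) and the clock gene Cry1 (from 630 and 555 to 1510 and 1442).

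Chromosome 12 went the other way, with a median of −0.22, −0.19 and −0.27 by culture, and 91 of 384 genes lower (23.7%). All 10 of its windows were below the genome median, whereas clone 4 had a median of 0.31 there. Chromosome 17 (−0.18) had all 15 windows below as well, and so did chromosome 18 (−0.15) with 7, where 64 of 270 genes were lower (23.7%); clones 1 and 3 had medians of −0.16 and −0.12 on chromosome 18. The called genes of largest change on chromosome 12 were Rapgef5 (−2.39), Rnf144a and Itgb8, and those on chromosome 10 were 2310057J18Rik (−3.28), Avil and Arfgef3. DNA copy number was not analysed here.

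**Figure D5:**
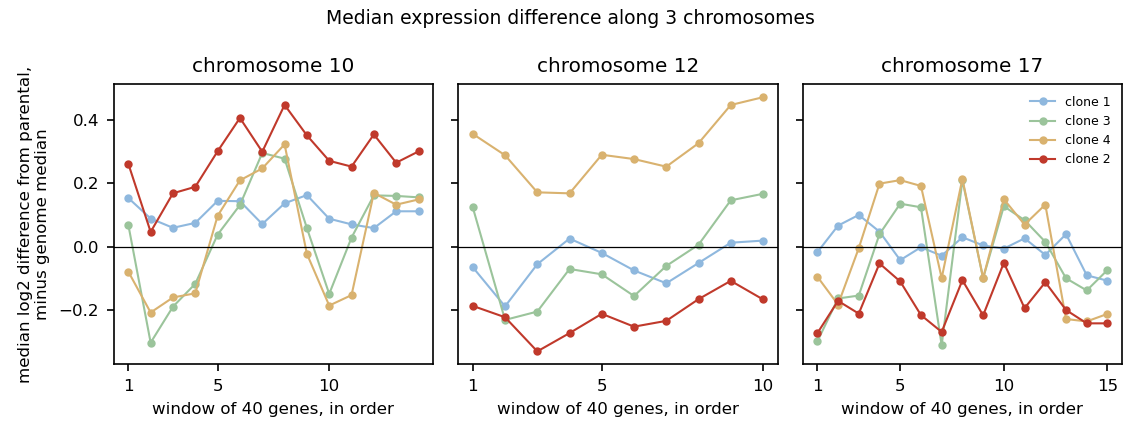
Median log2 difference from parental, minus the median over all genes, in windows of 40 consecutive genes along chromosomes 10, 12 and 17; lines mark the 4 clones. The red clone 2 line stays above 0 on chromosome 10, from 0.05 to 0.45, and below 0 on chromosome 12, from −0.33 to −0.11.

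Of the 143 named genes, none changed direction in any alternative that tested it; those whose call was lost are counted in the closing section. Genes with near-identical relatives, Mrgprb1 and Mrgprx2 among them, can share reads, and the way such reads were counted was not found in the labels.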

How the data were processed

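Bulk libraries were made from polyadenylated RNA with a stranded kit, per the labels' protocols. The authors deposited 1 table of variance-stabilised log2 values for 10 libraries (5 lines of 2). The submitters' processing notes name GRCm38 and mm10; the bulk aligner and counter were not found in the labels. Each column inverts to whole reads for 100% of values within a tolerance of 0.01, which gave the read numbers, divided by size factors for printing.

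Differences were tested on the deposited log2 values with limma 3.58.1 and a mean-variance trend over all 10 libraries (5 residual degrees of freedom), two-sided, with Benjamini-Hochberg adjustment over 10803 genes. edgeR 4.0.16 on the recovered reads, other normalisations and filters, left-out libraries and a replicate block were alternatives. On simulated data for clone 2 against parental (10803 genes), 79 of 100 genes changed 2-fold and 99 of 100 changed 4-fold were recovered. There were 17 false calls. The simulation set the same spread of a gene for all lines, whereas the SD between cultures was 0.0774 in parental cells and 0.241 in clone 2. Its rates therefore do not describe the real comparison.

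The comparison, gene lists and tests were chosen with earlier results of these data known. Named genes were Bap1, the 12 largest rises and falls (predicted genes left out), the 8 largest of each sign among genes apart from all other lines, all Mas-related receptors, up to 3 genes called per list by adjusted p and 3 per described chromosome; further list members and the genes on or off in clone 2 alone were chosen after their values were seen. Some genes under this rule are not reported here. Positions came from RefSeq GRCm38.p6. The deposited UMI counts of 4 tumour matrices (Cell Ranger 7.0.0 and 8.0.0 are named in the submitters' processing notes) were summed over all barcodes, with exact Poisson 95% intervals that cover counting error only.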

Additional observations from a re-analysis of the deposited data

Results flagged for a closer look

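The 15 genes described as apart in clone 2 from all 4 other lines were chosen by their differences from clones 1, 3 and 4. Their differences from the mean of those clones are therefore a description and not a further test. Higher in clone 2 were Sez6l by 5.32 log2 units, Mrgprb1 by 3.75, Mrgprx2 by 3.02, Emp2 by 3.01, Npy1r by 2.62, Arfgef3 by 2.43, and Tnfrsf19 by 2.01. Lower were Apoe (−2.65), Csf2rb (−2.04), Adgre5 (−1.77), Igfbp3 (−1.66), Slc40a1 (−1.59), Elac1 (−1.58), Emilin1 (−1.56) and Mmd (−1.38).

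The genes on in clone 2 alone also had reads in single-cell matrices of tumours, which no comparison above uses. The labels do not say which clone was injected, each tumour is 1 matrix of mixed cells, and no barcode was shared between the 4 matrices. Sez6l stood at 68.2 CPM (UMIs of all barcodes scaled to a common total) in the matrix labelled KO ocular, 51.7 in that labelled KO skin and 58.5 in that labelled WT ocular, against 1.24 (95% interval 1.02 to 1.49) in that labelled WT skin. Ephb1 stood at 32.5, 40.6 and 23.4 against 0.417, Aoc1 at 18.1, 78.6 and 19.5 against 2.9, and Kcnk3 at 4.59, 7.76 and 6.37 against 2.81. Mrgprb1 had 745, 427 and 190 CPM against 0.744. In the matrix labelled WT ocular these genes thus stood above that labelled WT skin, although the parental cultures had no more than 17.7 reads of each. It lists 32285 genes where the others list 19059, and whether eye tissue, the assay or the injected cells account for its values was not tested.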

How the results depend on the processing

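Bap1 kept its direction and call under every alternative run, and the medians of chromosomes 10 and 12, which carry no test, kept their sign on the stabilised scale and with a stricter filter. Genes changed against parental numbered 2822, and 2778 by edgeR, 2866 after quantile normalisation (1449 higher, 1417 lower), 3449 without a filter, 2103 with a stricter one and 3544 with the 4 libraries alone. The count fell to 1113 with the parental cultures counted as 1 sample, an alternative added after their small spread was seen, and ran from 1088 to 3488 with 1 library left out (1088 and 1161 without parental replicate 1 and 2, 1571 without clone 2 replicate 2). Against the other clones it was 1243, 700 with the parental cultures as 1 sample, and 402 to 2018 with 1 library left out: 700 without either parental replicate, 501 and 402 without clone 2 replicate 1 and 2, 667 and 578 without clone 3 replicate 1 and 2, and 2018 without clone 4 replicate 1. Genes apart from all other lines numbered 141, 226 without a filter, 65 with the parental cultures as 1 sample, and 56 to 227 with 1 library left out (64 and 67 without parental replicate 1 and 2, 87 and 71 without clone 2 replicate 1 and 2, 61 and 56 without clone 3 replicate 1 and 2, 227 without clone 4 replicate 1). Where 1 library was left out, the remaining culture of its line was assumed to vary like the other lines. No label ties the replicate numbers together; same-numbered deviations correlated at 0.11 to 0.73 in 5 of 6 pairs of clones, −0.03 for clones 3 and 4, and −0.13 to −0.07 for each clone with parental; the replicate block gave 3376, 1785 and 211 genes in the 3 counts, and crossed numbers, added after that correlation was seen, gave 3495 against parental. Of 143 named genes, 34 lost their call with the parental cultures as 1 sample, 32 without either parental replicate, 14 and 20 without clone 2 replicate 1 and 2, 6 without either clone 3 replicate, 7 after quantile normalisation, 2 on log2 reads and 1 by edgeR; none reversed. After quantile normalisation 3 Notch genes fell instead of 5, 5 integrins and cadherins rose instead of 3, 5 G protein and calcium genes fell instead of 3, and no gene of homologous recombination fell instead of 2. The median of the melanosome list changed sign, to −0.0118 by edgeR and −0.0016 after quantile normalisation, and that of homologous recombination went from −0.07 to 0.0942 after quantile normalisation; the cause of these changes was not tested. Depth limits low genes: 1005 table values were 0 reads.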

Other observations

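Cd274, Cd74 and H2-DMb1, chosen after their values were seen, stood higher in clone 2 than in all 4 other lines. Cd274, which encodes the checkpoint ligand PD-L1, had 1021 and 743 normalised reads in clone 2, 499 and 467 in parental cells and 404 to 649 in the other clones (0.67 against parental, adjusted p = 0.016, limma). Cd74, the class II invariant chain, had 203 and 304 against 112 and 103, and 40.5 to 89.3 in the other clones. H2-DMb1, which loads peptides on class II molecules, had 313 and 299 against 135 and 123, and 0 in both cultures of clone 4.

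Pomc, the precursor of melanocortin peptides that act on Mc1r, was lower in clone 2 than in every other line, with 88.0 and 61.8 reads against 245 and 232 in parental cells. Lipa, the lysosomal acid lipase, was lower too (2034 and 2313 against 4737 and 4739). Mark1, a kinase of microtubule-associated proteins, was higher, with 1185 and 1050 reads against 254 and 225, and stood at 29.6 and 7.9 in clone 1.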
